A study of Mus musculus with 5 samples.

Results

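The baseline m6A profile of mouse embryonic stem cells (mESCs), cells derived from the early embryo that can form every tissue of the body, was compared between 2 cultures that received no active treatment. The measurement was Nanopore direct RNA sequencing, which reads native poly(A) RNA molecules and calls modified adenosines on each of them. The first culture, DMSO, was the solvent control of the METTL3 inhibition dataset. It was an E14 line of WT genotype by its label, which carried the 2C::3xtbGFP-PEST and Zscan4::mCherry-PEST reporters, an APOBEC1-YTH-HA-IRES-tdiRFP transgene under a doxycycline promoter that was not induced, and a homozygous FKBP12 F36V tag on the C-terminus of METTL3 that was also left uninduced. The second culture, WT, was the untreated wild-type counterpart of 2 Mettl5-KO clones and none of these alleles is stated for it. Both grew in serum and LIF, and by the paper's methods the 2i inhibitors were added to the medium for maintenance. Each culture gave 1 library, and line, solvent, labelled batch and sequencing run differ together, so their parts in any difference cannot be told apart. The STM2457 library (the DMSO line with the METTL3 inhibitor) and the Mettl5-KO #1 and #2 libraries, sequenced with DMSO and with WT respectively, are given beside them.

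The members were all positions, by chromosome, start and strand, that both libraries list with more than 25 valid calls. There were 152743 of the 512355 positions in the series, which was 32.4% of the DMSO positions and 78.0% of the WT positions. Of these, 146541 lay on RefSeq-linked exons of 880 genes, and 12421 of them were the central adenosine of a DRACH motif (D is A, G or T, R is A or G, and H is A, C or T). The methylation level is the percentage of valid calls at a position that were m6A. Median coverage was 128 valid calls in DMSO and 56 in WT, 99 in STM2457, and 48 and 52 in the clones, with 41511144 valid calls in DMSO and 15044009 in WT over all exonic positions. Positions whose lower coverage was 25 calls, just outside the limit, had mean DRACH levels of 7.75% in DMSO and 6.27% in WT, and those at 26 calls, just inside it, 9.58% and 7.99%. Of 12 mESC marker genes, 11 were covered in the METTL3 inhibition dataset and 9 in the Mettl5 dataset, against at most 3 of 12 for feeder fibroblast, primitive endoderm, trophoblast, neural progenitor or mesoderm markers.

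m6A is placed on nascent mRNA mainly by the METTL3-METTL14 complex at DRACH motifs, and it accumulates in long internal exons and around the stop codon and 3′ UTR, where exon junction complexes are sparse. Reader proteins of the YTH family bind it, and the mark is best known in mESCs for shortening the life of transcripts that encode pluripotency factors. A separate enzyme, METTL16, methylates a small number of RNAs in another motif, among them the hairpins of the Mat2a 3′ UTR.

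The sequences below are the sites on which the results turn, each given as the mm10 position of the central adenosine with 10 transcript bases on either side, 5′ to 3′, taken from the annotated transcript. Capitals mark the 5 bases centred on the called adenosine. The first set holds the most completely methylated sites in both libraries among positions with at least 100 calls in each, 1 per gene. All 6 are GGACT or GAACT.
Slc2a1, chr4:119136604, plus strand, 3′ UTR: gatattcaGGACTttgatggc
Calr, chr8:84842553, minus strand, 3′ UTR: agactcaaGAACTtttcattt
Pcbp1, chr6:86525067, minus strand, coding sequence: ccacccatGAACTcaccattc
Serbp1, chr6:67284071, plus strand, 3′ UTR: aaaaaaaaGGACTgtcattca
Mkrn1, chr6:39399247, minus strand, coding sequence: gagctggaGGACTtttatgac
Morf4l2, chrX:136734065, minus strand, coding sequence: gaggactgGGACTtggttacg

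The second set holds sites that differed between the cultures and that STM2457 left at low levels. They are DRACH sites except for the GGATT sites of Mrpl15 and Ctnnb1. Grwd1 was higher in WT and the others were lower.
Grwd1, chr7:45825441, minus strand, 3′ UTR: aacttcagGAACTttaagggt
Bccip, chr7:133720892, plus strand, 3′ UTR: tttcccccAGACAgtgacagg
Mrpl15, chr1:4776415, minus strand, 3′ UTR: ctgcacatGGATTcttgtggg
Ctnnb1, chr9:120959962, plus strand, 3′ UTR: atacaaatGGATTtggggagt
Ctnnb1, chr9:120959583, plus strand, 3′ UTR: tgcctgcaGAACTccagaaag

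The third set holds sites called higher in WT that lack the DRACH motif. In each the called adenosine follows C or T.
Hsp90ab1, chr17:45571892, minus strand, coding sequence: gaagtgcaCCATGgagaggag
Aldoa, chr7:126795998, minus strand, coding sequence: ggagattgCCATGgcaacggt
Ywhah, chr5:33026665, plus strand, coding sequence: gcagaaaaCCATGgcagatgg
Bex3, chrX:136271540, plus strand, coding sequence: ggaaatgtTCATGgaggagat
Polr2e, chr10:80036952, minus strand, coding sequence: gcacgtggTCATGacaaagga
Zfp42, chr8:43296498, minus strand, 5′ UTR: gaagtgagTCATAggcattgt

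The fourth set shows all 5 methylated ACAGA sites of Mat2a and both of Tdgf1. STM2457 was lower than DMSO by about 10 points at chr6:72432953 (57.5% against 67.8%) and chr6:72433172 (61.5% against 71.0%) and within 5 points of it at the others.
Mat2a, chr6:72433287, minus strand, 3′ UTR: gtgtagctACAGAgaaaccag
Mat2a, chr6:72434250, minus strand, 3′ UTR: cgtaggttACAGAgaagcctt
Mat2a, chr6:72433061, minus strand, 3′ UTR: ggtgtcctACAGAaaaacctt
Mat2a, chr6:72432953, minus strand, 3′ UTR: ggtgtggtACAGAgaagccag
Mat2a, chr6:72433172, minus strand, 3′ UTR: gcgtaagtACAGAgaagccat
Tdgf1, chr9:110939848, minus strand, 3′ UTR: ggctatgtACAGAgtaccagg
Tdgf1, chr9:110940271, minus strand, 3′ UTR: aggcctacACAGAaaccctgt

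The first question was which genes were highly methylated in both cultures. At 530 sites on 260 genes at least 50% of calls were m6A in both libraries, and 507 of these sites (95.7%) were DRACH, a motif held by 8.48% of all shared exonic positions. Their mean level was 80.8% in DMSO and 74.8% in WT. In the libraries that were not used to choose them it was 76.8% in Mettl5-KO #1, 76.6% in Mettl5-KO #2 and 26.9% in STM2457, and 498 of the 530 were also at 50% or more in both clones. A single such site was present on 154 genes, 62 genes had at least 3 and 22 had at least 5. The level reached 75% in both libraries at 255 sites and 90% at 96.

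The nucleoporin gene Nup62 had the most, with 13 sites on chr7 between 44828629 and 44830616, 8 of them in its coding sequence and all in the last of its exons. They averaged 82.4% in DMSO, 77.9% in WT, 78.1% and 78.8% in the clones and 32.3% in STM2457. Epop, a subunit of Polycomb repressive complex 2, had 12 at 82.6% in DMSO and 77.4% in WT. Sephs2, which makes the selenium donor for selenoprotein synthesis, had 10 at 81.5% and 79.2%. Both of these transcripts are read from a single exon. The DNA mismatch repair gene Msh6 had 8 sites at 74.0% and 72.1%, all in the coding sequence of exon 4, which is 2536 bases long.

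The immediate early gene Ier2 had 8 sites at 83.0% in DMSO and 85.8% in WT, the only one of the 12 leading genes with the higher mean in WT. The histone variant gene H2afx had 7 at 81.2% and 78.4%, all in its 3′ UTR, and Phf23 had 7 at 75.1% and 68.6%. Tsc22d1, a transcriptional regulator, had 7 at 68.6% and 63.7%. G3bp2, a stress granule RNA-binding protein gene, had 6 at 88.2% and 79.8%, Grwd1, a histone-binding ribosome assembly factor gene, 6 at 81.0% and 77.2%, and Polr2m 6 at 67.9% and 60.6%. Ywhah, which encodes a 14-3-3 protein, had 5 sites with the highest means, 94.7% and 92.6%. None of these sites on the 12 genes was called different between the libraries. The smallest adjusted p on any of them was 0.294 (Fisher's exact test, Benjamini-Hochberg adjustment over all shared exonic positions). They were chosen for high levels in both libraries, which limits how far they could differ, so the lack of calls does not show agreement. Sites of Grwd1 (31.1% in DMSO and 92.3% in WT) and Ywhah (4.13% and 27.6%) outside this choice were called, as given below.

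**Figure D1:**
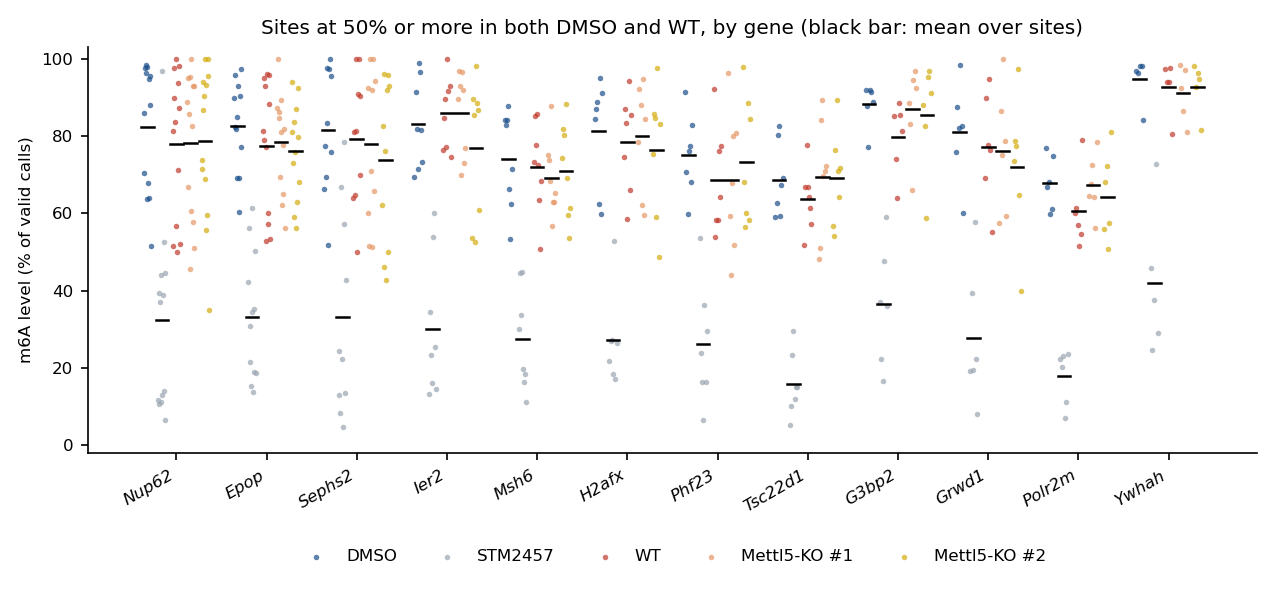
Methylation level (percentage of valid calls, vertical axis) of each site at 50% or more in both DMSO and WT, for the 12 genes with the most such sites, in the 5 libraries; points are sites and black bars are means over sites. The means of DMSO, WT and both Mettl5-KO clones lie between 60.6% and 94.7%, and those of STM2457 lie below them in every gene, from 15.8% in Tsc22d1 to 42.0% in Ywhah.

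The 6 single sites shown in the first set were near complete in both cultures. The Slc2a1 site, on the transcript of the glucose transporter GLUT1, was m6A in 97.2% of 106 calls in DMSO and 97.6% of 126 in WT. The site of Calr, an ER calcium-binding chaperone gene, stood at 97.0% of 676 and 93.9% of 180 calls. That of Serbp1, an mRNA-binding protein gene, stood at 95.2% of 505 and 91.9% of 283 calls. Their levels in STM2457 were 51.7%, 40.5% and 42.3%. The Pcbp1 site kept 75.9% in STM2457, beside 95.2% in DMSO and 93.3% in WT. Of the 530 shared high sites, 310 were under 25% in STM2457 and 62 were still at 50% or more. One of these was the Nup62 GGACT site at chr7:44830022, with 97.7% in DMSO, 100% of 46 calls in WT, 100% in both clones and 96.9% of 129 calls in STM2457.

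The shared high sites lay in the 3′ UTR in 366 cases and in coding sequence in 161, and none lay in a 5′ UTR. Of the 161 coding sites, 119 were in the last exon. The other 42 were in exons with a median length of 839 bases, against 165 bases for all 3997 shared coding DRACH positions outside last exons, and 40 of the 42 were in exons of 400 bases or more. GGACT was the motif of 195 of them. It was methylated at 322 of its 721 shared positions (44.7%), followed by GAACT at 29.4%, AGACT at 24.3% and GGACA at 22.4%.

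The second comparison asked how the levels differed. A site was taken as methylated if it had 25% or more in DMSO or WT, which held for 1554 sites on 515 genes, 1295 of them DRACH. Both libraries passed 25% at 1065 sites, DMSO alone at 352 (280 DRACH) and WT alone at 137 (30 DRACH). At the 1295 DRACH sites the mean level was 56.2% in DMSO and 47.1% in WT, and 49.9% and 50.2% in the clones. WT was lower than DMSO at 1091 of them, with a mean difference of -9.10 percentage points over sites. At the 1554 sites the SD of WT minus DMSO over sites was 11.7 points, and that of Mettl5-KO #2 minus #1 was 9.12 points around a mean of 0.258. All 12 motifs with 15 or more methylated sites, which are 10 DRACH motifs, GGACG and GGATT, had the lower mean in WT. The same held when neither library chose the sites: at the 976 DRACH positions at 25% or more in both clones, the mean was 64.1% in DMSO, 55.3% in WT and 59.5% in each clone. Across the 1554 sites, which share libraries and transcripts, Pearson's r was 0.890 between DMSO and WT (Spearman 0.842), and 0.938 between the clones (Spearman 0.906). Levels in DMSO or WT chose these sites, which can lower their r and widen their SD, while the clones had no part. Coverage also differed, so the r and SD of these pairs are not on equal terms.

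**Figure D2:**
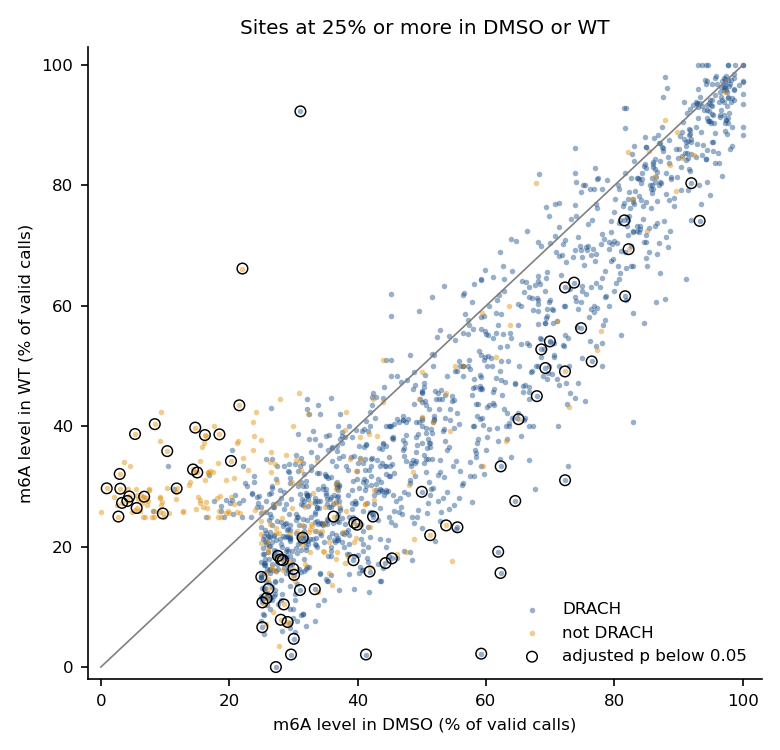
Methylation level in DMSO (horizontal axis) and WT (vertical axis), in percent of valid calls, of 1540 methylated sites that lie on 1 gene; blue points are DRACH sites, orange points are others, and open circles mark an adjusted p below 0.05. Most blue points lie under the line of equal levels, while the orange points with low DMSO levels lie above it because 25% in WT was needed to include them.

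Outside DRACH the mean over positions went the other way, with 45495 positions higher in WT, 35160 higher in DMSO and 53465 equal. The methylated GGACG and GGATT sites above were an exception. Over all 12421 shared DRACH positions, methylated or not, the mean level was 8.27% in DMSO, 6.80% in WT, 7.30% and 7.37% in the clones and 1.93% in STM2457. Over the 134120 other positions it was 0.924% in DMSO, 0.801% in STM2457, 1.34% in WT and 1.31% in each clone. DMSO thus lay with STM2457, and WT with both clones. The gap was wider where a pyrimidine came before the adenosine. After C or T the mean was 1.29% in DMSO and 2.01% in WT, and after A or G it was 0.618% and 0.783%. The share of calls for the other modifications of the caller (inosine and 2′-O-methyladenosine) was also higher in the Mettl5 dataset, at 0.599% in WT and 0.582% and 0.605% in the clones against 0.444% in DMSO and 0.406% in STM2457. The share of failed calls was 8.37% in DMSO and 8.17% in WT. What part the run had in these levels was not tested.

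**Figure D3:**
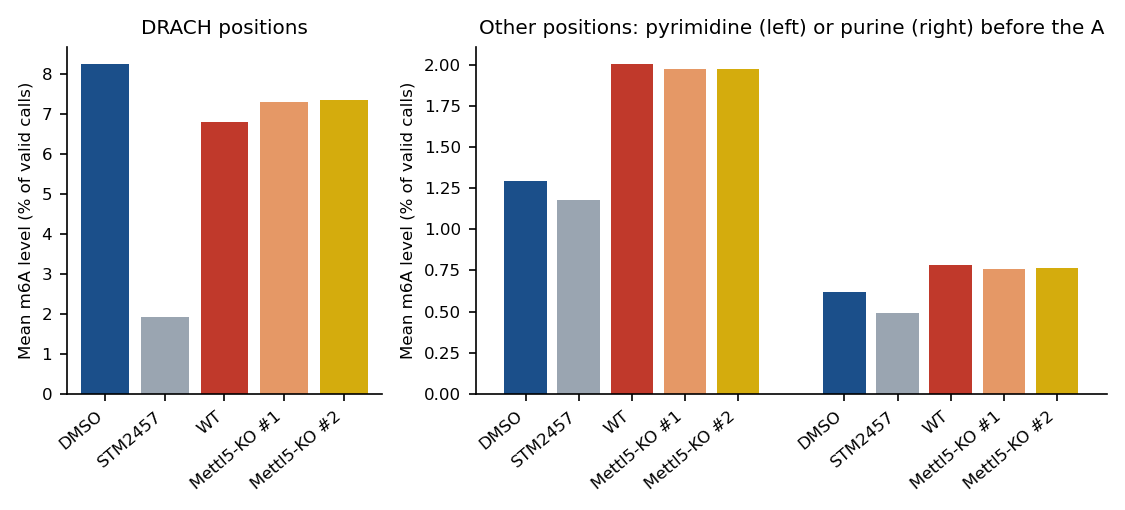
Mean methylation level (percentage of valid calls, vertical axes from 0) in the 5 libraries over shared DRACH positions (left) and over other shared positions whose called adenosine follows a pyrimidine or a purine (right); bars are means over positions. DRACH means were highest in DMSO and lowest in STM2457, while the means of the other positions were higher in WT and both clones than in DMSO and STM2457.

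Single sites were tested with a two-sided Fisher's exact test on m6A against other calls, which compares these libraries and not the conditions of culture. Of all 146541 shared exonic positions, 474 (0.323%) were called higher in WT and 71 (0.0485%) lower at an adjusted p below 0.05. The share was 0.0644% higher and 0.403% lower over DRACH positions, and 0.347% higher and 0.0157% lower over the others. At an unadjusted p under 0.05, 4691 of all the positions were higher and 848 lower in WT. The same test between the clones called 0 positions, with 345 higher and 464 lower in Mettl5-KO #2 at an unadjusted p under 0.05, and between WT and Mettl5-KO #1 it called 0, with 516 higher and 388 lower in the clone at an unadjusted p under 0.05. Between WT and Mettl5-KO #2 it called 3 positions higher and 1 lower in the clone. Median coverage was 48 and 52 in the clones and 56 in WT, against 128 in DMSO, so the comparisons without DMSO had less power. Among the 1554 methylated sites, 53 (3.41%) were lower in WT and 23 (1.48%) were higher. Of the 53, 39 were DRACH, and of the 23, 1 was. All 22 non-DRACH sites called higher had C or T before the adenosine. Over all shared non-DRACH positions that are A in the transcript, 399 of 60429 after C or T were called higher, against 67 of 73448 after A or G. The 22 sites averaged 10.1% in DMSO, 9.80% in STM2457, 34.1% in WT and 27.4% and 28.0% in the clones.

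The sites called lower fell on genes of several kinds. Bracketed ranges given below are exact binomial bounds at 95%, for counting error alone. In the 3′ UTR of Ctnnb1, the gene of β-catenin, 2 sites were called, with 51.3% in DMSO and 21.9% in WT at the GGATT site and 44.3% and 17.3% at the GAACT site (adjusted p = 0.00401 and 0.00646, Fisher's exact test). The clones lay at 34.0% and 27.2% at the GGATT site and 16.7% and 25.5% at the GAACT site. Mrpl15, a mitochondrial ribosomal protein gene, also had a pair, at 53.8% against 23.5% and 41.9% against 15.9% (adjusted p = 0.000526 and 0.00439, Fisher's exact test). At these 4 sites DMSO was above WT and both clones, and STM2457 was below all of them.

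Jpt1 fell from 55.6% in DMSO to 23.2% in WT (adjusted p = 0.0406, Fisher's exact test), Emc6, a subunit gene of the ER membrane insertion complex, from 62.3% to 33.3% (0.0433), and D8Ertd738e from 76.5% to 50.8% (0.0212). Their clones lay between the cultures, at 36.4% and 37.5%, 48.3% and 53.8%, and 58.7% and 57.1%. As the sites were called on DMSO and WT, those libraries are likely to be the extremes here and in the means below. Over all 39 DRACH sites called lower, the means were 52.5% in DMSO, 29.9% in WT, 39.8% and 39.0% in the clones and 8.13% in STM2457. The 14 non-DRACH sites called lower had 42.6% in DMSO, 24.2% in WT, 27.3% and 26.2% in the clones, and 28.3% in STM2457. The STM2457 mean pools unlike sites. STM2457 was far below DMSO at some, as at Mrpl15 GGATT (53.8% in DMSO and 5.53% in STM2457). At others it was near DMSO, as at Trh GTAGG (65.1% and 62.3%). In Eef1a1, the translation elongation factor gene and one of the deepest transcripts, 3 sites, picked after their values were seen, were called at smaller differences. These were 81.6% of 7506 calls against 74.2% of 3271, 72.3% of 7407 against 63.1% of 3210, and 28.0% of 5390 against 17.9% of 2695.

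Among the sites called higher, the Hsp90ab1 site, on the transcript of the constitutive cytosolic HSP90 chaperone, had the largest difference of those with 50 or more calls in both. It stood at 22.1% of 893 calls in DMSO (95% exact binomial interval 19.4 to 24.9) and 21.3% of 586 in STM2457, and at 66.2% of 355 in WT (61.0 to 71.1), 73.8% and 63.4% in the clones (adjusted p = 5.46e-43, Fisher's exact test). The site in Aldoa, a glycolytic aldolase gene, was at 14.7% in DMSO, 15.7% in STM2457, 39.8% in WT and 40.2% and 41.4% in the clones (adjusted p = 1.39e-18, Fisher's exact test). Bex3 rose from 8.41% to 40.4%, Polr2e, an RNA polymerase subunit gene, from 2.94% to 32.1% at one site and 4.44% to 28.3% at another, Gcsh, a glycine cleavage gene, from 0.922% to 29.7%, Zfp42 (REX1) from 10.3% to 35.9%, and Ywhah from 4.13% to 27.6%. The adjusted p of these 6 sites ran from 2.49e-08 to 0.00724. At each, DMSO and STM2457 lay below WT and both clones. All 8 lie outside DRACH, and 7 read CATG or CATA from the base before the adenosine.

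Grwd1, Bccip and Kpnb1 sites, all DRACH, had under 50 calls in WT and so lay outside the rule for named sites. They were chosen after their values were seen. The Grwd1 site in the 3′ UTR, the single DRACH site called higher, was at 31.1% of 119 calls in DMSO (22.9 to 40.2) and 92.3% of 39 in WT (79.1 to 98.4), with 88.9% and 96.7% in the clones and 0.877% in STM2457 (adjusted p = 1.69e-08, Fisher's exact test). The 6 shared high sites of the same transcript averaged 81.0% and 77.2%, as given above. The Bccip site, 15 bases into the 3′ UTR of a BRCA2-interacting protein gene, was at 41.3% of 138 calls in DMSO (33.0 to 49.99) and 2.08% of 48 in WT (0.0527 to 11.1), with 2.33% of 43 and 0% of 55 in the clones and 5.0% in STM2457 (adjusted p = 2.79e-05, Fisher's exact test). The adenosine that begins its motif, 2 bases upstream, had 48 valid calls in WT and 43 and 52 in the clones. It has no entry for DMSO or STM2457, in which the adenosines around it had 122 to 142 calls. Whether the METTL3 inhibition line has the same bases in this motif could not be checked here, so the levels at this site may not refer to the same sequence. The Kpnb1 site, on the transcript of importin β1, was at 59.3% of 27 calls in DMSO (38.8 to 77.6) and 2.22% of 45 in WT (0.0562 to 11.8). The clones had 15% of 40 and 31.6% of 38 calls.

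**Figure D4:**
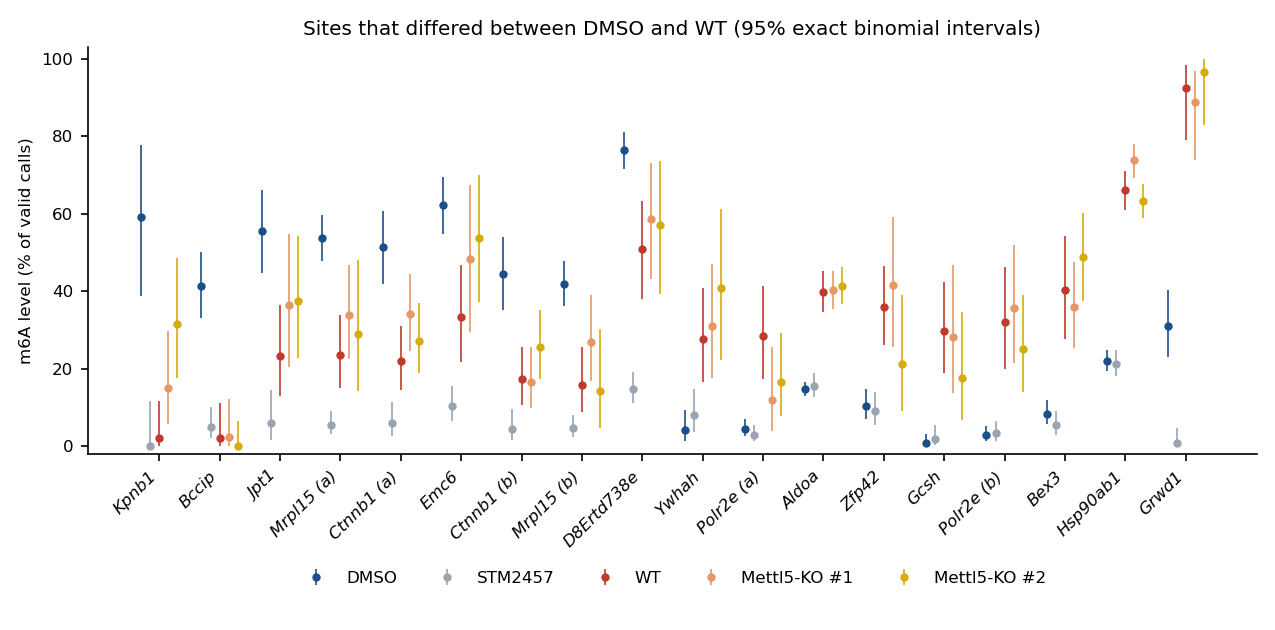
Methylation level (percentage of valid calls, vertical axis) in the 5 libraries at 7 of the largest lower and the 8 largest higher differences called with 50 or more calls in both, with Kpnb1, Bccip and Grwd1 added; bars are 95% exact binomial intervals, and of a pair of sites on a gene the left is marked a. At the sites to the right of D8Ertd738e the WT and clone points lie above DMSO and STM2457, and in Bccip DMSO alone stands apart, at 41.3%.

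Mat2a, which encodes the enzyme that makes the methyl donor S-adenosylmethionine, had 5 methylated sites, all ACAGA preceded by T and none DRACH. Its mean over the 5 was 78.3% in DMSO, 78.4% in WT and 73.0% in STM2457, and 63.6% and 64.7% in the clones. None of the 5 was called between DMSO and WT. At chr6:72433172 the levels were 71.0% in DMSO, 57.5% in WT, 61.5% in STM2457, 38.9% in Mettl5-KO #1 and 41.5% in #2. The motif TACAGAGAA, with the called adenosine at position 4, was present at 11 shared positions, 5 of them in Mat2a. Of those 5, 4 were methylated, and the 6 on other genes averaged 1.57% in DMSO and 1.16% in WT. The shorter TACAGA, which contains all of these, was at 186 positions (0.127% of 145897 on 1 gene), and 6 were methylated, 5 on Mat2a and 1 on Tdgf1.

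Tdgf1, the gene of the Nodal co-receptor Cripto, differed site by site. At its TACAGA site, chr9:110939848, DMSO was at 18.5% of 211 calls (13.5 to 24.4), WT at 38.7% of 163 (31.1 to 46.6), the clones at 13.5% and 12.4%, and STM2457 at 13.99% (adjusted p = 0.00953, Fisher's exact test of WT against DMSO). WT alone stood apart, and it was the single methylated site called between WT and Mettl5-KO #2 (adjusted p = 0.00497, Fisher's exact test). At the other ACAGA, chr9:110940271, DMSO and STM2457 had 28.0% and 28.6% and WT and the clones 7.86%, 4.72% and 5.84%. The GGACT site at chr9:110939884 had 67.9% in DMSO and 45% in WT, with 52.5% and 62.0% in the clones. Its AGACT site, 83.3% and 79.1%, was not called. In Sfpq, a paraspeckle splicing factor gene, none of 5 sites was called, and the mean load was 23.6% in DMSO and 32.6% in WT.

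Gene m6A load, the mean level over the methylated sites of a gene, was compared for the 217 genes with at least 3 sites. It was 52.5% in DMSO, 45.03% in WT and 47.1% and 47.4% in the clones on average, and WT was below DMSO in 191 genes, with a median difference of -6.95 points. In 56 genes (25.8%) WT was lower by 10 points or more with every site on that side, and in 0 it was higher by that rule. Between the clones the rule gave 3 lower (1.38%) and 2 higher (0.922%) in Mettl5-KO #2. Sites of a gene share reads, so loads were given no test, and 9 of the 56 genes held a site that passed Fisher's test.

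The lowest loads relative to DMSO were those of Ezr and Actn4, genes of the membrane-cytoskeleton linker ezrin and of α-actinin 4. Ezr had 61.3% in DMSO, 33.8% in WT and 46.6% and 45.8% in the clones over 3 sites, and Actn4 45.5%, 22.3%, 30.7% and 32.7% over 4. Aplp2, an amyloid precursor-like gene, had 46.7% and 23.7%, Yeats4, an acetyl-histone reader gene, 69.7% and 47.6%, Mrpl15 53.8% and 33.4%, and Slc39a7, an ER zinc transporter gene, 60.6% and 40.4%. In all 6 the clones lay between DMSO and WT, but these genes were picked for their DMSO and WT difference. Libraries not used in that choice tend to fall between the 2 that were. Of these 6, only Mrpl15 held called sites, 2 of its 4. The largest differences the other way, none of which met the rule, were in Cdc42 (18.9% in DMSO and 29.8% in WT), Polr2e (30.8% and 39.8%), Sfpq, Tex10 (74.3% and 79.5%), Uqcrfs1 (41.2% and 46.0%) and E2f4 (25.3% and 29.7%). Cdc42, the gene of a small GTPase of cell polarity, had no DRACH site among its 3.

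Read depth was compared for 809 genes with at least 20 shared positions, as the valid coverage at the deepest shared position of a gene, WT over DMSO, divided by the median ratio over genes, 0.345. In bulk RNA a change in the cells' make-up and in RNA per cell cannot be told apart, and with 1 library a side there was no test. By this measure 135 genes (16.7%) were 2-fold or more higher in WT and 60 (7.42%) lower. Mettl5-KO #2 over #1 passed 2-fold in 69 genes (8.53%), and Mettl5-KO #1 over WT in 16 (1.98%). The position was chosen by the summed DMSO and WT coverage, so a clone can be deeper elsewhere on the gene. In Trh, Mettl5-KO #2 had 69 calls at that position and 118 at the site chr6:92242975. The clone shares here and the clone depths below carry this limit. Relative depth in WT increased with annotated transcript length (Spearman 0.436 over 809 genes, and 0.416 and 0.403 for the clones over DMSO, against 0.0435 for STM2457 over DMSO; the 4 share the DMSO library). Its median was 0.735 for transcripts under 750 bases and 1.53 for those over 3000. When each gene was centred on its length class, 104 (12.9%) were higher and 56 (6.92%) lower.

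**Figure D5:**
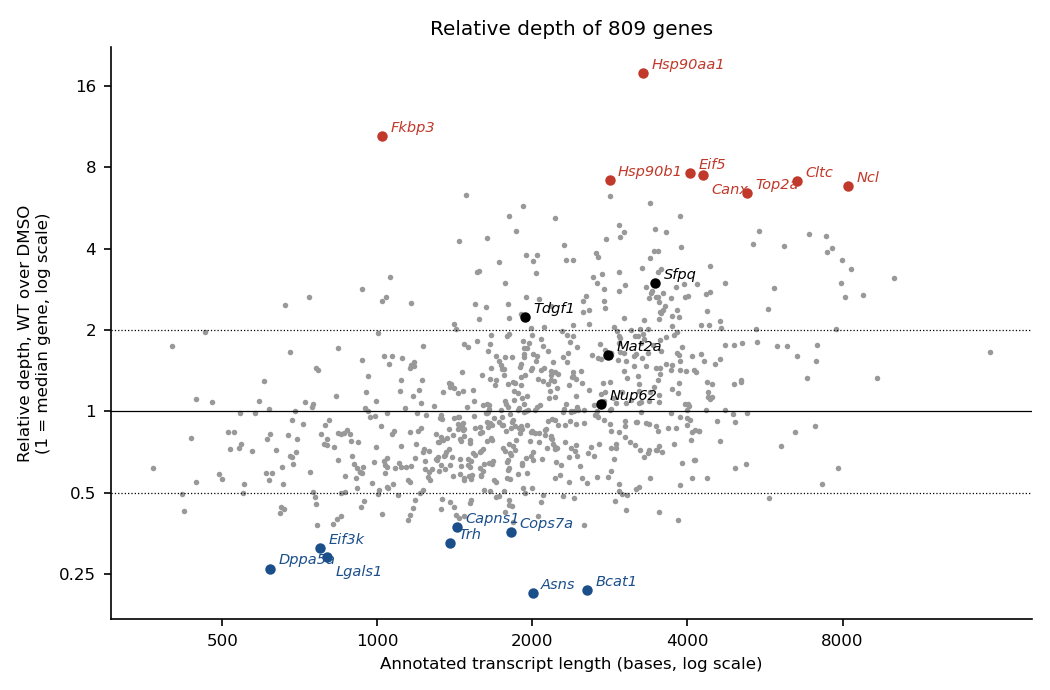
Relative depth of WT over DMSO (vertical axis, log scale, 1 is the median gene) by annotated transcript length in bases (horizontal axis, log scale) for 809 genes; named genes are coloured, and dotted lines mark 2-fold. The lower named genes lie at 0.374 or less over short and middle lengths, while 7 of the 8 higher named genes have transcripts of 2825 bases or more and Fkbp3 has 1022.

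The genes with the least relative depth in WT were 2 of amino acid metabolism. Asns, which makes asparagine and is a target of the amino acid response, had 1022 calls in DMSO, 654 in STM2457, 75 in WT and 54 and 40 in the clones, 4.71-fold lower in WT than the median gene (95% exact binomial interval 3.72 to 6.03). Bcat1, the cytosolic branched-chain aminotransferase gene, had 599, 492, 45, 35 and 27 calls in the same order and was 4.598-fold lower (3.39 to 6.37). Dppa5a, a naive pluripotency marker and the deepest of these, had 6013 calls in DMSO and 544 in WT, 3.82-fold lower (3.50 to 4.18), with 558 and 548 in the clones. Lgals1 was 3.47-fold, Eif3k 3.21-fold, Trh 3.07-fold, Cops7a 2.80-fold and Capns1 2.67-fold lower. Within length classes the decreases of the shorter transcripts were smaller. The ratios of Dppa5a, Lgals1, Eif3k, Trh and Capns1 were then 0.356, 0.381, 0.412, 0.432 and 0.495, against 0.262, 0.288, 0.312, 0.326 and 0.374 before. Those of Asns, Bcat1 and Cops7a were 0.210, 0.215 and 0.352, against 0.212, 0.217 and 0.357. Trh, the thyrotropin-releasing hormone gene, had 2202 calls in DMSO, 858 in STM2457, 248 in WT, and 74 and 69 in the clones, so WT stood between DMSO and its own clones.

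Hsp90aa1, the stress-inducible cytosolic HSP90, was the highest. It had 114 calls in DMSO, 222 in STM2457, 705 in WT and 513 and 528 in the clones, 17.9-fold higher in WT relative to the median gene (14.7 to 22.0) and 11.7-fold within its length class. Fkbp3 was 10.5-fold higher (7.40 to 15.1), with 42 calls in DMSO, 152 in WT, and 102 and 33 in the clones. Eif5, a translation initiation factor gene, was 7.63-fold, the ER chaperone genes Canx and Hsp90b1 7.47-fold and 7.21-fold, Cltc, the clathrin heavy chain gene, 7.11-fold, Ncl, the nucleolin gene, 6.85-fold, and Top2a, a DNA topoisomerase gene, 6.44-fold higher. Within their length class Eif5, Canx, Cltc, Ncl and Top2a were 4.98-fold, 4.88-fold, 4.64-fold, 4.47-fold and 4.204-fold higher. STM2457 over DMSO was above 1 in all 8, from 1.23 in Top2a to 2.52 in Hsp90aa1. The 8 were picked for a high ratio over DMSO, and a low DMSO count raises both ratios. Hsp90aa1 and Hsp90ab1 are close paralogs, and reads of conserved stretches may have been placed on either. Hsp90ab1 itself had a relative depth of 1.01.

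The naive pluripotency list had 10 of 30 genes with a depth. Beside the shares of all genes above, 4 were 2-fold or more higher in WT and 1, Dppa5a, was lower, with a list median of 1.42. Esrrb, Fbxo15, Gdf3, Tcl1, Nr0b1 and Spp1 were covered in the METTL3 inhibition dataset only, and Sall4 and Rif1 in the Mettl5 dataset only. Of all genes with at least 50 covered positions in DMSO, 61.9% had none in WT. The share the other way was 10.5%. L1td1, an RNA-binding protein gene, had 36 calls in DMSO and 61 in WT (4.90-fold higher), Lin28a, a let-7 processing inhibitor gene, 39 and 53 (3.93-fold), Sox2, a core pluripotency factor, 83 and 75 (2.62-fold), and Tdgf1 225 and 174 (2.24-fold). Pou5f1 (OCT4), with 1055 and 257 calls, and Nanog, with 168 and 43, had ratios of 0.705 and 0.741. Within their length classes these were 0.933 and 0.731. Zfp42 had 411 calls in DMSO, 155 in WT and 51 and 37 in the clones, and its ratio in WT was 1.09. Of 46 methylated sites on the list's genes, 6 were called, 4 of them lower and 2 higher in WT, beside 3.41% lower and 1.48% higher over all methylated sites. They included Utf1 GGACT, 92.0% in DMSO and 80.4% in WT, and the 3′ UTR site of Zfp42, 69.3% and 49.7%.

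The counts of the following lists stand beside 16.7% of all 809 genes higher and 7.42% lower. Genes covered in 1 dataset only stand beside the shares of 61.9% and 10.5% given above. Of the amino acid and ER stress list, 10 of 24 genes had a depth, with 3 lower (Asns, Shmt2 and Atf4), 2 higher (Hsp90b1 and Pdia4) and a median of 0.829. Atf4, the transcription factor of that response, had 463 and 78 calls, 2.05-fold lower, and Shmt2, a mitochondrial serine enzyme gene, 232 and 39, 2.06-fold lower. Trib3, Psat1, Slc7a3, Xbp1 and Cth were covered in the METTL3 inhibition dataset only. Of the cholesterol and fatty acid synthesis list, 5 of 24 had a depth, with Hmgcs1 4.72-fold and Fasn 3.12-fold higher and none of the 5 lower. Mvd, Mvk, Sqle, Lss, Cyp51, Dhcr7, Nsdhl and Srebf2 were covered in the METTL3 inhibition dataset only, and no gene of this list in the Mettl5 dataset only. Of the heat shock list, 3 of 15 had a depth, with Hsp90aa1 and Hspa4 (2.16-fold) higher, but Hspa4 had 1.41 within its length class and so fell under 2-fold. Hspd1, Hspe1, Hsph1, Dnajb1, Hspb1, Hspa9 and Hmox1 were covered in the METTL3 inhibition dataset only, and no gene of this list in the Mettl5 dataset only. Of the glycolysis and hypoxia list, 8 of 26 had a depth, with 1 higher, Slc2a1 at 3.38-fold, and a median of 0.916. Gpi1, Pfkp and Pgam1 were covered in the METTL3 inhibition dataset only, and Pdk1, Ddit4 and Slc16a3 in the Mettl5 dataset only. The feeder fibroblast list had a depth for 2 of 12 genes, Sparc at 4.14-fold and Fn1 at 3.36-fold higher in WT. Timp1, also on that list, was covered in the METTL3 inhibition dataset only. Within length classes, values of several long transcripts were smaller by over 1.5 times, at 2.57 for Lin28a, 3.08 for Hmgcs1, 2.03 for Fasn, 2.21 for Slc2a1 and 2.19 for Fn1. Sparc, also on the primitive endoderm list, had 91 calls in DMSO, 130 in WT and 71 and 35 in the clones. The part of other cell types in these ratios was not tested. Neither dataset covered Mettl3, Mettl14, Wtap, Alkbh5 or Mettl5, and Mettl16, Fto and Ythdf1 were covered in the METTL3 inhibition dataset only.

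Of 2241 genes with at least 50 covered positions in DMSO, 1387 (61.9%) had none in WT, and of 797 such genes in WT, 84 (10.5%) had none in DMSO. The former had a median transcript length of 1989 bases and the latter of 4013. The deepest covered in the METTL3 inhibition dataset only were Mylpf, a skeletal muscle myosin light chain gene, and Stmn2, a neuronal stathmin gene, with medians of 558 and 524 calls in DMSO and 477 and 232.5 in STM2457. Sept1, a septin gene, had 327 and 129, and it lies on chr7 from 127214447 to 127233130, on the opposite strand to Mylpf, which lies from 127208890 to 127214298. Aes, Psmb2, Minos1, Sdhb and Trir followed, with medians of 438, 349.5, 294.5, 293.5 and 286 calls in DMSO.

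The deepest covered in the Mettl5 dataset only was Lars2, with a median of 1898.5 calls in WT and 33 and 47 in the clones. Its 66 covered positions fell within 384 bases of the 3′ UTR, chr9:123461803-123462186. Ftl1, the ferritin light chain gene, had 742 calls in WT, 578 and 143 in the clones, and has many near-identical copies in the mouse genome, so its placement is uncertain. Nasp, a histone chaperone gene, had 107, 98 and 121, and Dnmt3b, a de novo DNA methyltransferase gene, had 106, 144 and 163. Ddx3x, Slc38a2, Eif3a and Dek had medians of 88, 76, 73 and 72 calls in WT and between 57 and 91 in the clones. The submitters kept positions by coverage within each dataset, so a gene listed in 1 dataset may have had fewer calls, not none, in the other.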

How the data were processed

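Poly(A) RNA libraries (SQK-RNA004) were demultiplexed with WarpDemuX, and basecalled, modification-called (inosine, m6A and 2′-O-methyladenosine) and aligned to mm10 with dorado by the authors. Their modkit pileups, deposited per sample, hold counts of valid, m6A, other-modification, canonical, failed, deleted and different-base calls and the percent modified, restricted by the authors to positions with a coverage minimum in all samples of a dataset; the deposited percent column was not used. bedtools is named in the submitters' processing notes.

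DMSO and WT were joined by chromosome, start and strand at more than 25 valid calls. Positions were placed on exons of RefSeq-linked GENCODE M21 transcripts (mm10), the source of motifs and sequences. Levels were m6A over valid counts. Fisher's exact test with Benjamini-Hochberg adjustment ran over all exonic positions, with Clopper-Pearson 95% intervals. Loads and depth had no test. Libraries are single, so p-values measure counting error only. The named sites and genes were those with the most sites at 50% in both (12 genes), the 6 highest single sites, the 8 largest called sites each way, the 6 largest load differences each way, the 8 highest and lowest depths, the 8 deepest genes in 1 dataset only, and Mat2a, Tdgf1, Sfpq and Nup62; pseudogenes, predicted, Rik and chromosome 18 genes were counted but not named. A site called lower is not reported here. The members and lists were chosen with earlier results of these data known. Scripts used Python 3.11.15, numpy 2.4.6, scipy 1.17.1, pandas 2.3.3 and matplotlib 3.10.9, and were tested on simulated data.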

Additional observations from a re-analysis of the deposited data

Results flagged for a closer look

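At 3 shared positions outside the RefSeq-linked exons, which no comparison above used, the level was 50% or more in both libraries. One on chr14 at 56010635 had 83.5% of 127 calls in DMSO and 77.5% of 40 in WT, and 15.2% in STM2457. One on chr5 at 129845928 had 83.3% of 729 and 76.7% of 215, and 16.5% in STM2457. Both lie on other GENCODE exons. The one on chr5 at 22528268, outside any GENCODE exon, had 65.8% of 433 calls and 51.5% of 270, and 12.3% in STM2457. No other untreated library was used here to set them against. In all, 42 positions outside those exons passed 25% in either library.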

How the results depend on the processing

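No paired analysis was possible because each culture has 1 library and no number is shared between DMSO and WT. The direction of the mean difference over methylated sites (-7.27 points) was kept under all alternatives, down to -0.707 with a 10% threshold, which takes in 5159 sites. Counts moved more. Against 53 sites lower and 23 higher in WT, 100 calls in both gave 9 higher, a 10% threshold gave 65 lower and 138 higher, so that most calls were then higher, a 50% threshold 25 lower and 2 higher, failed calls in the denominator 5 higher, DRACH alone 1 higher, and adjustment over methylated sites alone 172 lower and 55 higher. Sites at 25% in both clones, an alternative chosen after seeing the data, gave 27 lower and 13 higher, and their 117 non-DRACH sites averaged 39.4% in DMSO and 39.6% in WT. Failed calls in the denominator moved the adjusted p of the Emc6 site to 0.0802 and of D8Ertd738e to 0.131. Genes with a lower load (56) numbered 29 with 50 calls, 20 (and 3 higher) with a 10% threshold and 104 (and 6 higher) with 2 sites a gene. Depth calls (135 higher, 60 lower) numbered 234 and 180 at 1.5-fold and 58 and 6 at 3-fold, and with length classes, also added later, Sfpq fell from 2.98 to 1.95. Shared high sites (530 on 260 genes) numbered 255 on 145 genes at 75% and 259 on 139 genes with 50 calls in both. The cause of these moves was not tested, beyond the fewer or further sites each setting admits. For named sites and genes, 676 values across the settings kept their side of the threshold, 12 lost it (among them the loads of Ezr, Actn4, Aplp2, Mrpl15 and Slc39a7 at the 10% threshold) and 5 gained it. Between the cultures compared, median coverage was lower in WT (56 calls) than in DMSO (128), and it limits the precision there.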

Other observations

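Relative depth also differed by chromosome, a summary made after the values were seen. After centring on transcript length class, the median of the 102 chromosome 11 genes was 1.29 in WT over DMSO, with 78 of 102 above the class median, and 1.03 and 1.06 in the Mettl5-KO clones over DMSO. The 57 chromosome 8 genes had medians of 0.835 in WT and 0.628 and 0.669 in the clones, and the 55 chromosome 6 genes 0.794 in WT and 0.690 and 0.609 in the clones. The 23 chromosome 12 genes had 1.35 in WT and 1.42 and 1.0 in the clones. STM2457 over DMSO lay between 0.982 and 1.08 on these 4 chromosomes. Asns, Bcat1, Trh and Cops7a, which are 4 of the 8 genes with the least relative depth, are on chromosome 6, and of the 8 with the most, Canx, Cltc and Top2a are on chromosome 11 and Hsp90aa1, Fkbp3 and Eif5 on chromosome 12. The 3 ratios share the DMSO library. Genes of a chromosome are not replicates, and no test was made.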
